A study of Saccharomyces cerevisiae with 9 samples.

Results

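The genes described here are 32 genes of the ergosterol and mevalonate pathway of budding yeast, found by symbol among the 5205 protein-coding genes of the deposited tables. All 32 were present, and all 32 passed the filter on low counts, which retained 5172 genes. RNA was sequenced from 9 cultures of Saccharomyces cerevisiae W303, 3 each from white colonies of the cdc13-K504E mutant (K504E-white), red colonies of the same mutant (K504E-red) and red colonies of the wild type (WT-red). Each culture had been held in YPD, a rich glucose medium, for 15 days in stationary phase without dilution. Cdc13 binds single-stranded telomeric DNA, and the title of the series names a defect of the mutant protein in binding junctions. Cells of W303 blocked in the adenine pathway at ADE2 build up a red pigment. No white wild-type group was analysed, so colour and mutation cannot be told apart where K504E-white is set against WT-red. The labels do not say whether the white colonies are 1 clone or several.

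Ergosterol is the main sterol of yeast membranes. The mevalonate steps turn acetyl-CoA into farnesyl diphosphate, which also feeds ubiquinone, dolichol, heme A and protein prenylation. Squalene is then made from farnesyl diphosphate, epoxidised and cyclised to lanosterol, and later enzymes demethylate, isomerise and desaturate the rings and side chain. Several of these steps consume molecular oxygen, and some of their enzymes contain heme, so the pathway is regulated by oxygen, heme and sterol levels. The paralogous zinc-cluster factors Upc2 and Ecm22 bind sterol response elements in front of many ERG genes. Surplus sterol is stored as esters made by Are1 and Are2.

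Total counts ranged from 27388755 to 34634199 per library. The 32 genes together took 0.951% ± 0.0879 of the counts in K504E-white, 0.816% ± 0.0185 in K504E-red and 1.16% ± 0.0402 in WT-red (SD, n = 3 each). Levels below are in CPM, the count per 1000000 reads after scaling of library sizes. CDC13 itself had 21.2 ± 0.507 CPM in K504E-white, 27.7 ± 5.18 in K504E-red and 25.2 ± 2.15 in WT-red (SD, n = 3), and its counts cannot show the substitution. CDC13 was called lower in K504E-white than in K504E-red (log2 fold change -0.38, SE 0.125, adjusted p 0.0159 by edgeR's quasi-likelihood test). That call was lost with limma on log2 FPKM, and by edgeR without K504E-red replicate 2 or 3 (adjusted p-values from 0.0534 to 0.0975). ADE2 had 439 ± 14.7 CPM in K504E-white, 121 ± 8.55 in K504E-red and 86.2 ± 9.97 in WT-red (SD, n = 3). The data come from whole cultures, so a lower level in all cells and a larger share of cells with a low level cannot be told apart. The titles call the libraries biological replicates, and nothing says how the cultures were separated.

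Red mutant colonies had less RNA of most of the pathway than red wild-type colonies. Of the 32 genes, 25 fell in K504E-red relative to WT-red and 0 rose by edgeR's quasi-likelihood test at an adjusted p-value under 0.05. Among all genes tested, 47.5% were called in either direction, 21.7% lower and 25.8% higher. Of all genes called, 54.3% were higher, and that share was 44.8% to 55.2% under the alternative fits described below. The number that rose among the 32 was also 0 at an unadjusted p-value under 0.05, and 0 with DESeq2 and with limma. The median log2 fold change was -0.46 over the 32 genes and 0.03 over all genes. The falls were mostly under 2-fold: 1 of the 32 genes fell at least 2-fold, where 0.696% of all genes changed by that much. For 25 of the 32 genes the K504E-red and WT-red libraries did not overlap, a state found for 54.6% of all genes.

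White mutant colonies had lower RNA of some of these genes and higher RNA of others. Against WT-red, 18 of the 32 genes were lower and 4 were higher in K504E-white, where 46.8% of all genes were called, 23.5% lower and 23.3% higher. Of all genes called there, 49.8% were higher, and that share was 41.6% to 50.9% under the alternative fits. The median log2 fold change was -0.18 over the 32 genes and -0.01 over all genes. Of the 32 genes, 0 changed at least 2-fold, where 3.54% of all genes did, and 22 did not overlap, where 56.1% of all genes did not. Against K504E-red, 15 were higher and 5 were lower in K504E-white, where 54.5% of all genes were called, 27.2% higher and 27.3% lower. The median there was 0.13 over the 32 genes and -0.00426 over all genes. HMG1, ERG5 and HES1 (3 of the 32) changed at least 2-fold, where 4.56% of all genes did, and 17 did not overlap, where 61.9% of all genes did not.

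**Figure D1:**
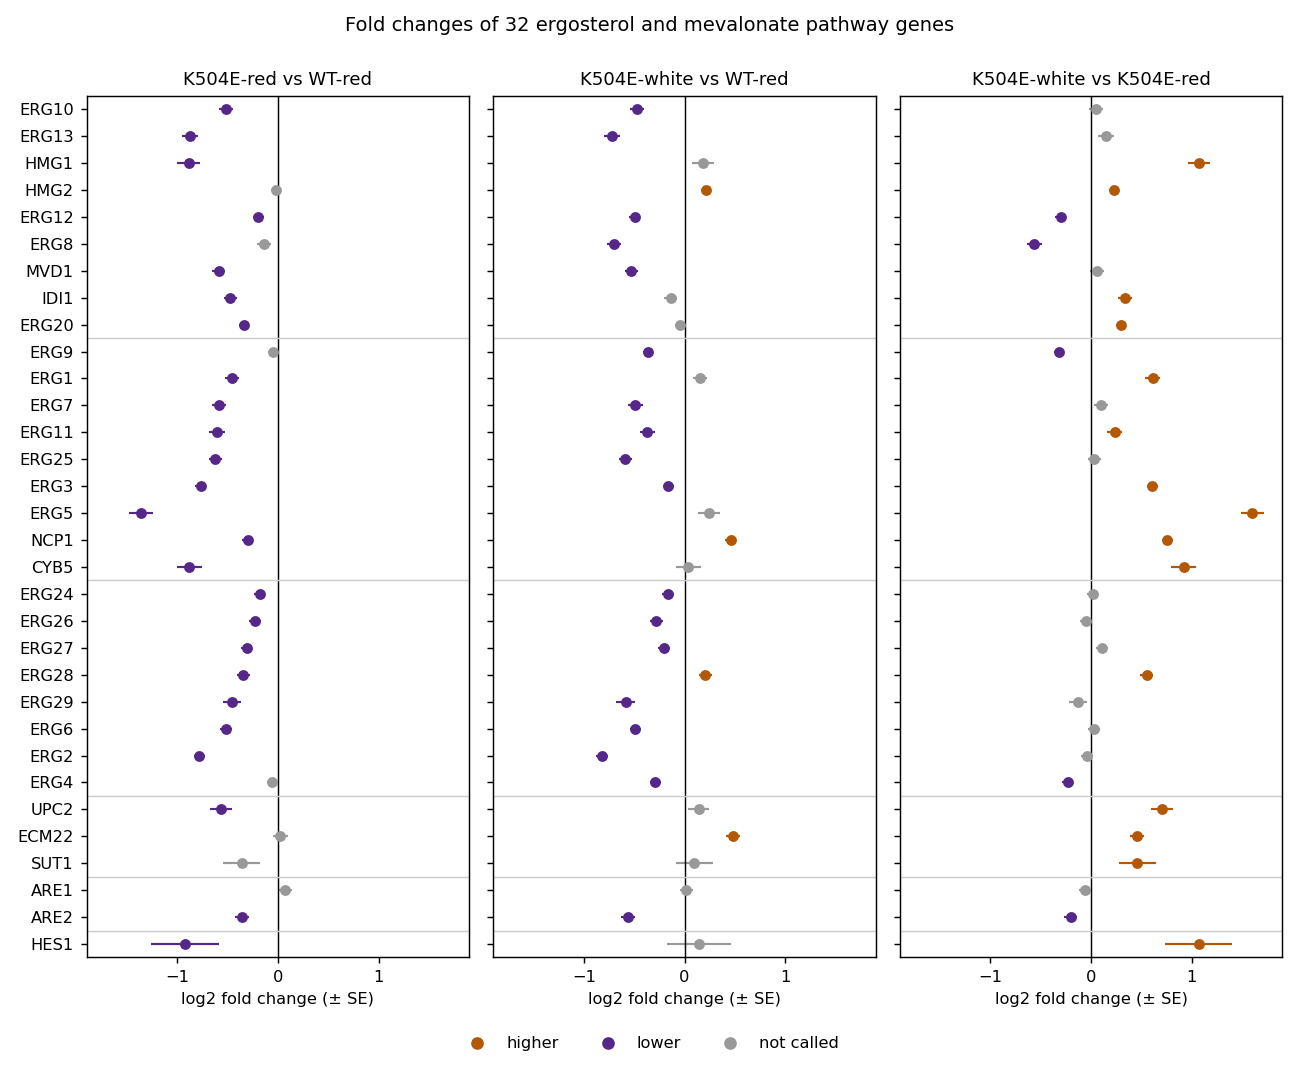
Log2 fold changes with standard errors of the 32 genes in the 3 comparisons, ordered by step from mevalonate synthesis to sterol transfer and separated by grey lines. Purple points are lower and orange points higher in the first-named group by edgeR, and grey points were not called: 25 points are purple in K504E-red against WT-red, and 15 are orange between the colours of the mutant.

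The comparisons against WT-red share the WT-red libraries, so their values are placed side by side. The share of all genes with each combination of calls was not counted, so the numbers below only describe the pathway genes. A set of 11 genes fell in both mutant groups relative to WT-red with no call between the colours: ERG10, ERG13, MVD1, ERG7, ERG25, ERG24, ERG26, ERG27, ERG29, ERG6 and ERG2. Another 8 fell in K504E-red relative to WT-red, rose in K504E-white relative to K504E-red, and were not called between K504E-white and WT-red: HMG1, IDI1, ERG20, ERG1, ERG5, CYB5, UPC2 and HES1. NCP1 and ERG28 rose in K504E-white and fell in K504E-red, each relative to WT-red. ERG8, ERG9 and ERG4 were lower in K504E-white than in both other groups, with no call between K504E-red and WT-red. ERG11 and ERG3 fell in both mutant groups and further in K504E-red, and ERG12 and ARE2 fell in both and further in K504E-white. HMG2 and ECM22 rose in K504E-white relative to both red groups, SUT1 was called higher in K504E-white than in K504E-red and in neither comparison with WT-red, and ARE1 was not called.

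**Figure D2:**
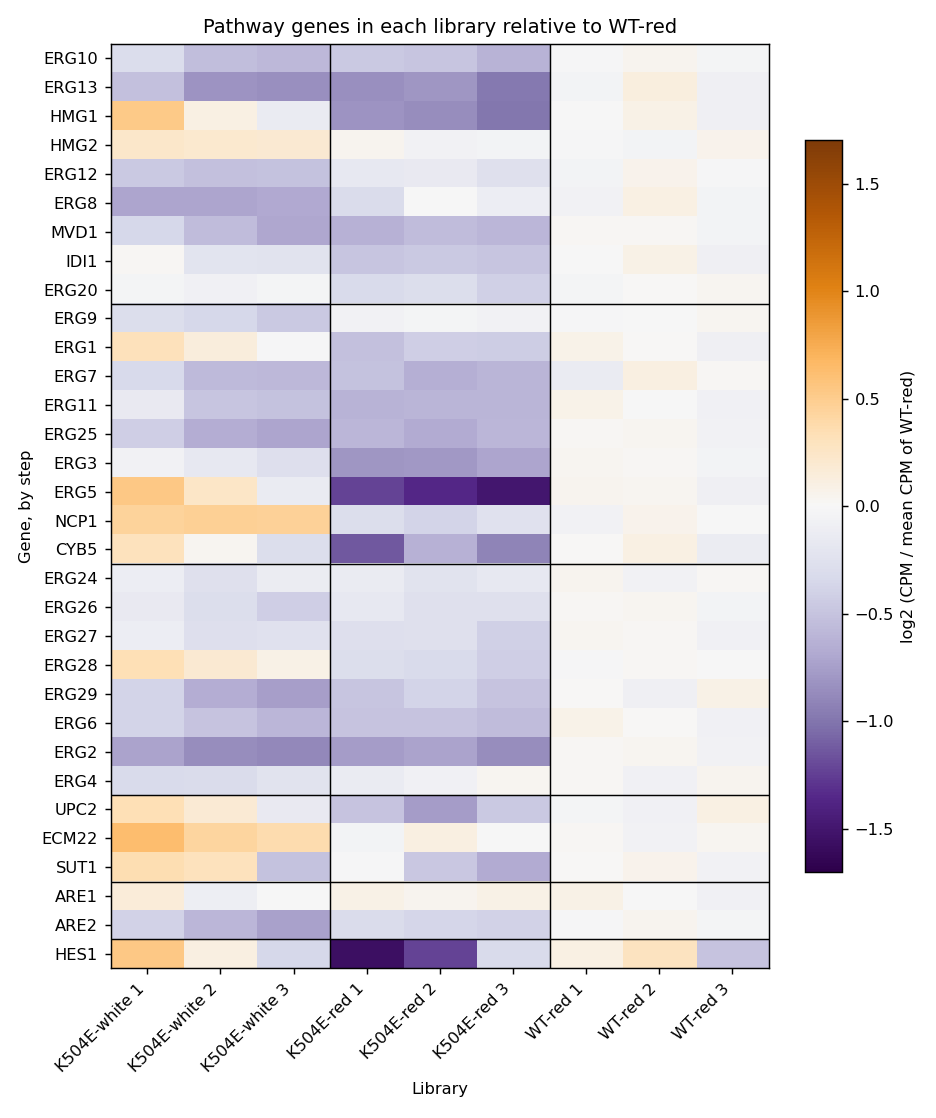
Log2 ratio of the CPM of each gene (rows, by step) in each library (columns) to the mean CPM of WT-red. Purple marks lower and orange higher values: ERG5 is dark purple in all 3 K504E-red libraries, and K504E-white replicate 1 is the highest of its group for 29 of the 32 genes.

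The mevalonate steps comprise 9 genes, of which 7 fell in K504E-red against WT-red, where 21.7% of all genes fell. The values of all 9 in that comparison ran from -0.89 to -0.02 on the log2 scale. HMG1 encodes a HMG-CoA reductase, the enzyme of the main control point of the pathway. HMG1 (YML075C, W303 contig 121, 27707 to 30871, plus strand) had 358, 266 and 226 CPM in K504E-white, 141, 138 and 126 CPM in K504E-red, and 247, 265 and 235 CPM in WT-red. The K504E-red libraries lay below all others, and the 3 K504E-white libraries spanned the WT-red range on both sides. By edgeR, HMG1 fell by 0.89 on the log2 scale in K504E-red against WT-red (SE 0.112, adjusted p 6.42e-06) and rose by 1.07 in K504E-white against K504E-red (SE 0.112, adjusted p 3.3e-07). In K504E-white against WT-red it gave 0.19 (adjusted p 0.181 by edgeR), 0.30 without K504E-white replicate 3 (adjusted p 0.0230) and -0.05 without K504E-white replicate 1.

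HMG2 encodes the second reductase isozyme, which is known for its regulated degradation and its use at low oxygen. HMG2 (YLR450W, contig 104, 13834 to 16971, plus strand) had 310.2, 303.5 and 300.3 CPM in K504E-white, 272, 253 and 254 CPM in K504E-red, and 259.7, 256 and 274 CPM in WT-red. The red groups overlapped, and the white libraries stood above both. Relative to WT-red, HMG2 rose by 0.21 in K504E-white (SE 0.0503, adjusted p 0.00217 by edgeR) and gave -0.02 in K504E-red (SE 0.0504, adjusted p 0.799).

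ERG13, which encodes HMG-CoA synthase, had 494, 404 and 396 CPM in K504E-white, 396, 408 and 361 CPM in K504E-red, and 688, 774 and 666 CPM in WT-red. Both mutant groups lay below every WT-red library and overlapped each other, at -0.72 (SE 0.0784) for K504E-white and -0.87 (SE 0.0787) for K504E-red on the log2 scale. ERG10, the acetoacetyl-CoA thiolase gene of the first step, fell by 0.47 in K504E-white and fell by 0.52 in K504E-red on the same scale. MVD1, the mevalonate diphosphate decarboxylase gene, fell by 0.53 in K504E-white and fell by 0.59 in K504E-red. ERG8, the phosphomevalonate kinase gene, had 96.0, 95.8 and 97.1 CPM in K504E-white, 126, 156 and 145 CPM in K504E-red, and 149.5, 168 and 152 CPM in WT-red. Its fall was found in the white libraries, with -0.70 (SE 0.0718) against WT-red and -0.56 (SE 0.0719) against K504E-red, whereas the red groups differed by -0.14 (SE 0.0712, adjusted p 0.122 by edgeR). Without K504E-red replicate 2 that difference was -0.25 (adjusted p 0.0139). ERG12, the mevalonate kinase gene, was lowest in K504E-white, at -0.30 (SE 0.0537) relative to K504E-red, and K504E-red was at -0.20 (SE 0.0535) relative to WT-red. At the end of this branch, IDI1 (isopentenyl diphosphate isomerase) and ERG20 (farnesyl diphosphate synthase) fell by 0.47 and fell by 0.34 in K504E-red against WT-red, and rose by 0.34 and 0.29 in K504E-white against K504E-red. IDI1 was not called between K504E-white and WT-red (-0.14, adjusted p 0.0926 by edgeR), but was called lower by that test under 4 alternatives. It gave -0.17 with genes of at least 1 count (adjusted p 0.0409) and with at least 10 counts in every library (adjusted p 0.0419). Without K504E-red replicate 3 it gave -0.17 (adjusted p 0.0463), and without K504E-white replicate 1 it gave -0.26 (adjusted p 0.00361).

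Summed over the 9 mevalonate genes, FPKM (counts per gene length and library size) was 2272 ± 166 in K504E-white, 2010.0 ± 73.2 in K504E-red and 2828 ± 116 in WT-red (SD, n = 3). The summed level was lower in every mutant library than in every WT-red library.

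The genes of all 5 enzymes that consume oxygen (ERG1, ERG11, ERG25, ERG3 and ERG5) and of their electron donors NCP1 and CYB5 fell in K504E-red relative to WT-red. Among all genes tested, 21.7% fell in that comparison. Of these 7 pathway genes, 6 rose in K504E-white relative to K504E-red, where 27.2% of all genes rose. ERG5 encodes the cytochrome P450 that desaturates the sterol side chain. ERG5 (YMR015C, contig 164, 77542 to 79158, minus strand) had 394, 320.0 and 245 CPM in K504E-white, 115, 106 and 95.8 CPM in K504E-red, and 279, 276 and 255 CPM in WT-red. Every K504E-red library was far below each of the other libraries. ERG5 fell by 1.36 on the log2 scale in K504E-red against WT-red (SE 0.116, adjusted p 1.84e-07 by edgeR), which ranked 8 from the lowest among 5172 genes. It rose by 1.60 in K504E-white against K504E-red (SE 0.117, adjusted p 2.81e-09 by edgeR), which ranked 32 from the highest. Between K504E-white and WT-red, ERG5 gave 0.24 (adjusted p 0.0869 by edgeR, SE 0.112), and in the absence of K504E-white replicate 3 it gave 0.38 (adjusted p 0.00285).

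ERG3, the sterol desaturase gene whose product takes electrons from cytochrome b5, had 591, 547 and 510.4 CPM in K504E-white, 351, 355 and 376 CPM in K504E-red, and 625, 622 and 594 CPM in WT-red. The 3 groups did not overlap, with K504E-red far below the others. ERG3 fell by 0.77 (SE 0.0572) in K504E-red and fell by 0.16 (SE 0.0567, adjusted p 0.0279 by edgeR) in K504E-white against WT-red, the second of which was not called without K504E-white replicate 3 (adjusted p 0.0851) or WT-red replicate 2 (adjusted p 0.0684). ERG1 encodes squalene epoxidase, the first oxygen-using step. ERG1 had 814, 722 and 642 CPM in K504E-white, 453, 489.6 and 484 CPM in K504E-red, and 686, 659 and 615 CPM in WT-red. ERG1 fell by 0.46 (SE 0.0715) in K504E-red relative to WT-red and rose by 0.61 (SE 0.0716) in K504E-white against K504E-red. Its value in K504E-white against WT-red was 0.15 (adjusted p 0.0891 by edgeR), and 0.21 without K504E-white replicate 3 (adjusted p 0.0249).

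ERG11 and ERG25 changed in the same direction in both mutant groups. ERG11 encodes lanosterol demethylase, the P450 that azole antifungals inhibit. ERG11 had 996, 791 and 775 CPM in K504E-white, 720.4, 729 and 726 CPM in K504E-red, and 1160.0, 1099 and 1052 CPM in WT-red. Every WT-red library was above every mutant library. ERG11 fell by 0.37 (SE 0.0751) in K504E-white and fell by 0.61 (SE 0.0754) in K504E-red. The difference of 0.24 (SE 0.0752, adjusted p 0.0133 by edgeR) between the colours was 0.11 with an adjusted p of 0.131 without K504E-white replicate 1. ERG25, the methyl sterol oxidase gene, was the most abundant of the 32 by mean FPKM and fell by 0.59 (SE 0.0658) in K504E-white and fell by 0.62 (SE 0.0658) in K504E-red. Between the colours ERG25 gave 0.03 (SE 0.0657, adjusted p 0.711 by edgeR).

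Both electron donor genes were higher in the white than in the red mutant colonies. NCP1 encodes the reductase that passes electrons to P450 enzymes. NCP1 (YHR042W, contig 240, 57509 to 59584, plus strand) had 385, 393 and 388 CPM in K504E-white, 232, 218 and 239 CPM in K504E-red, and 272, 296 and 282 CPM in WT-red. The 3 groups did not overlap, and WT-red lay between the mutant colours. Relative to WT-red, NCP1 rose by 0.46 in K504E-white (SE 0.0518, adjusted p 1.16e-06 by edgeR) and fell by 0.30 in K504E-red (SE 0.0521, adjusted p 0.000148). CYB5, which encodes cytochrome b5, had 118, 97.9 and 78.5 CPM in K504E-white, 43.3, 61.7 and 50.9 CPM in K504E-red, and 96.2, 102 and 87.7 CPM in WT-red. CYB5 fell by 0.88 (SE 0.127) in K504E-red relative to WT-red and rose by 0.92 (SE 0.127) in K504E-white against K504E-red.

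Neither of the squalene steps that use no oxygen was called higher in K504E-white than in K504E-red. ERG9, the squalene synthase gene, had 508, 484 and 450.2 CPM in K504E-white, 595, 607 and 595 CPM in K504E-red, and 611, 614 and 631 CPM in WT-red. ERG9 was lower in K504E-white than in both K504E-red (-0.32, SE 0.0519) and WT-red (-0.36, SE 0.0519), and the red groups differed by -0.05 (SE 0.0518, adjusted p 0.483 by edgeR). ERG7, the lanosterol synthase gene, fell by 0.49 (SE 0.0721) in K504E-white and fell by 0.59 (SE 0.0724) in K504E-red against WT-red. Summed FPKM of the 9 squalene, oxygen-using and donor genes was 3179 ± 353 in K504E-white, 2479 ± 35.4 in K504E-red and 3687 ± 147 in WT-red (SD, n = 3). K504E-white overlapped WT-red in this sum, with 3562 in K504E-white replicate 1 and 3517 in WT-red replicate 3.

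**Figure D3:**
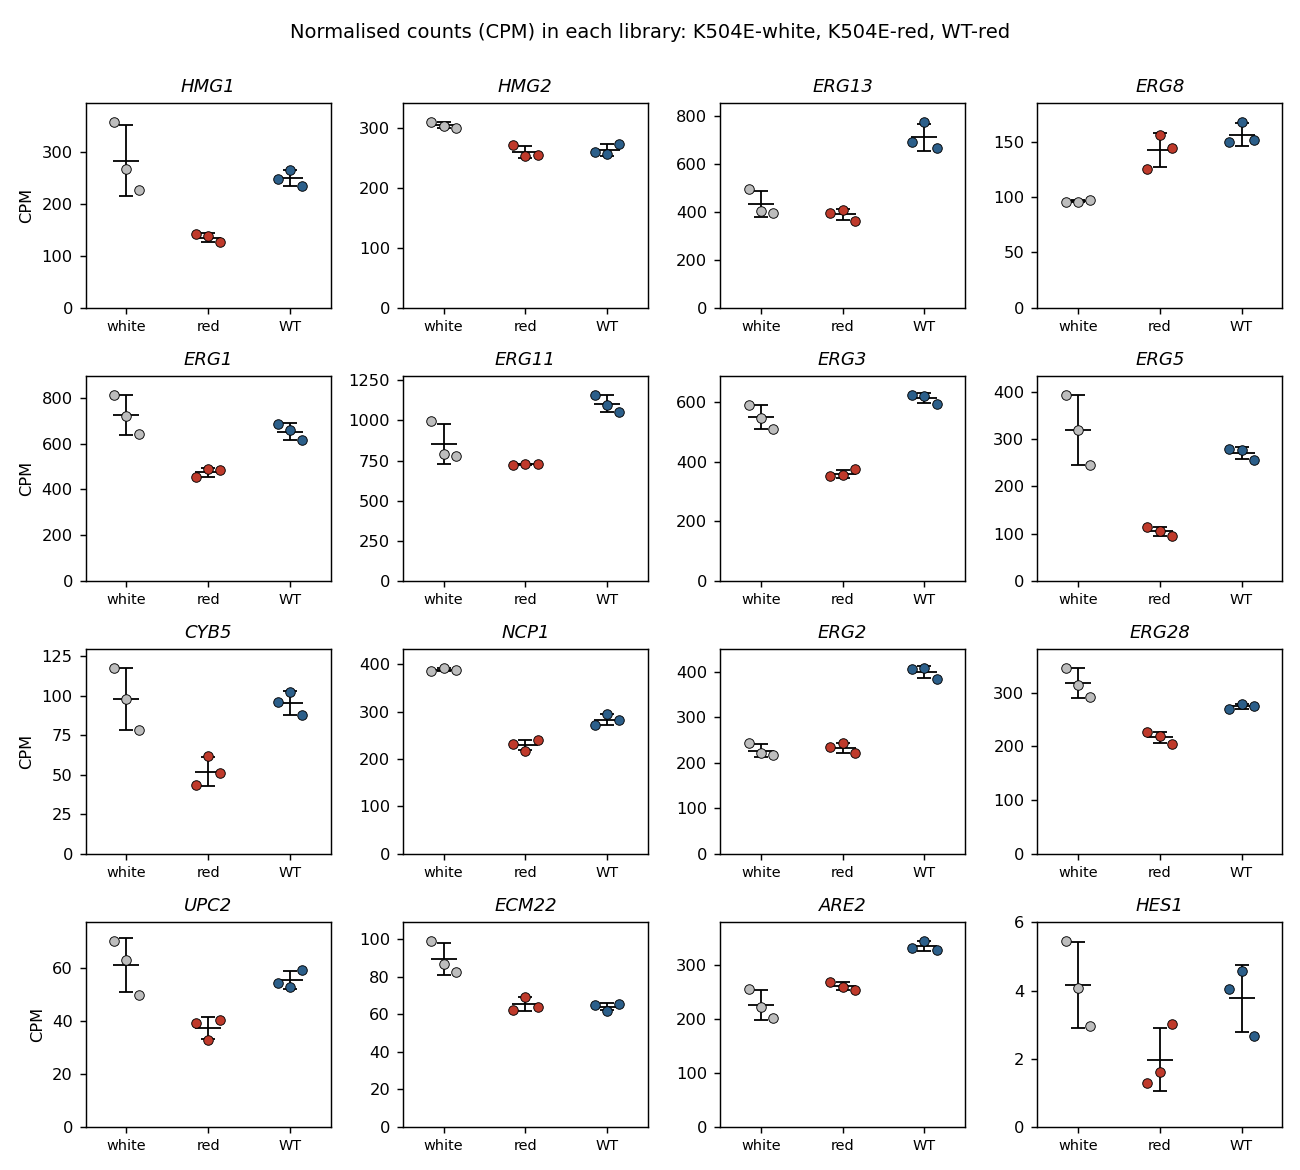
CPM of 16 of the 32 genes in each library, on linear axes from 0, with the mean and SD of the 3 libraries of K504E-white (grey), K504E-red (red) and WT-red (blue). HMG1, ERG1, ERG3, ERG5, CYB5 and UPC2 are lowest in K504E-red, ERG13 and ERG2 are low in both mutant groups, and ERG8 is lowest in K504E-white.

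The other late steps comprise 8 genes. Of these, 7 fell in K504E-white and 7 in K504E-red relative to WT-red, where 23.5% and 21.7% of all genes did. Between the colours, ERG28 was higher and ERG4 lower in K504E-white, where 27.2% and 27.3% of all genes were. ERG2 encodes the sterol isomerase. ERG2 (YMR202W, contig 192, 33370 to 34038, plus strand) had 242, 221 and 217 CPM in K504E-white, 235, 243 and 221 CPM in K504E-red, and 407, 409 and 384 CPM in WT-red. The mutant groups overlapped each other, and both were far below WT-red, at -0.82 (SE 0.0566, adjusted p 1.82e-09 by edgeR) in K504E-white and -0.78 (SE 0.0566, adjusted p 3.97e-08) in K504E-red. ERG6, the sterol methyltransferase gene, fell by 0.49 in K504E-white and fell by 0.51 in K504E-red against WT-red. ERG24, ERG26 and ERG27, which encode a sterol reductase, a decarboxylase and a keto reductase, had smaller log2 fold changes, from -0.28 to -0.16 in K504E-white and from -0.31 to -0.18 in K504E-red. The call of ERG24 in K504E-white was lost without WT-red replicate 3 (adjusted p 0.0584 by edgeR). ERG29 fell by 0.58 in K504E-white and fell by 0.46 in K504E-red. Between the colours it gave -0.13 (adjusted p 0.256 by edgeR), and -0.25 without K504E-white replicate 1 (adjusted p 0.0280).

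ERG28 encodes the scaffold that holds the demethylation enzymes together at the endoplasmic reticulum. ERG28 (YER044C, contig 46, 12034 to 12480, plus strand) had 347, 315 and 292 CPM in K504E-white, 226, 219 and 205 CPM in K504E-red, and 270.3, 279.9 and 275 CPM in WT-red. As for NCP1, WT-red lay between the mutant colours. Relative to WT-red, ERG28 rose by 0.21 in K504E-white (SE 0.0606, adjusted p 0.009 by edgeR) and fell by 0.34 in K504E-red (SE 0.0609, adjusted p 0.000192). The call in K504E-white was lost without K504E-white replicate 1 (0.11, adjusted p 0.179), K504E-white replicate 2 (0.18, adjusted p 0.0547) or WT-red replicate 1 (0.16, adjusted p 0.0678). ERG4, the gene of the last reductase of the pathway, had 307, 308 and 326 CPM in K504E-white, 349, 365 and 392 CPM in K504E-red, and 389.9, 364 and 398 CPM in WT-red. The red groups overlapped, and ERG4 was lower in K504E-white than in K504E-red (-0.23, SE 0.0555).

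The regulators were measured at low levels per gene length. UPC2 encodes a transcription factor that senses sterols and is induced when they are scarce. UPC2 (YDR213W, contig 212, 88833 to 91574, minus strand) had 70.2, 63.0 and 49.9 CPM in K504E-white, 39.3, 32.6 and 40.3 CPM in K504E-red, and 54.3, 52.7 and 59.3 CPM in WT-red. K504E-red lay below both other groups, at -0.57 (SE 0.110, adjusted p 0.000416 by edgeR) against WT-red, and K504E-white overlapped WT-red. ECM22, its paralogue, had 99.0, 86.7 and 82.3 CPM in K504E-white, 62.3, 69.3 and 63.9 CPM in K504E-red, and 65.1, 61.7 and 65.3 CPM in WT-red. Here the white libraries stood above both red groups, with 0.48 (SE 0.074) against WT-red and 0.46 (SE 0.0741) against K504E-red, and the red groups overlapped. SUT1 encodes a factor linked to sterol uptake. SUT1 had 31.9, 30.6 and 17.5 CPM in K504E-white, 24.6, 18.0 and 15.6 CPM in K504E-red, and 24.9, 25.9 and 23.9 CPM in WT-red. All groups overlapped, and its call of 0.46 (SE 0.186, adjusted p 0.0446 by edgeR) between the colours was lost under 12 of 19 alternatives, with adjusted p-values from 0.0553 to 0.213. Its value of -0.36 in K504E-red against WT-red (adjusted p 0.124 by edgeR) was called under 4 alternatives, among them -0.57 without K504E-red replicate 1 (adjusted p 0.0192) and -0.39 without K504E-white replicate 3 (adjusted p 0.0330).

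**Figure D4:**
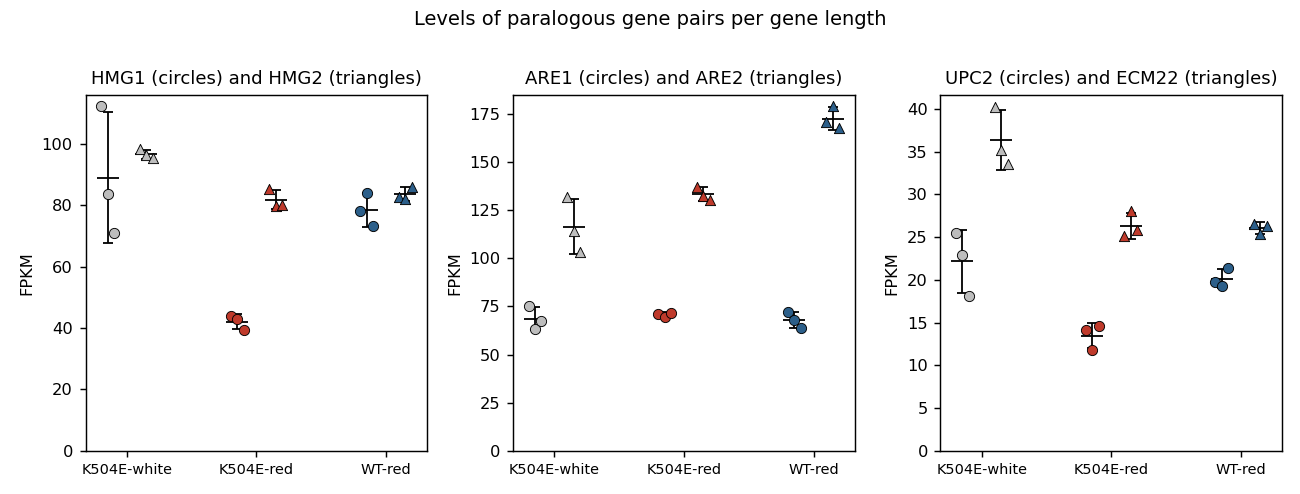
FPKM of HMG1 and HMG2, ARE1 and ARE2, and UPC2 and ECM22 in each library, with the mean and SD of 3 libraries per group, on linear axes from 0. HMG1 lies near 42.1 FPKM in K504E-red, below HMG2 at 81.9, whereas in WT-red the means are 78.5 and 83.6, and ARE2 is highest in WT-red while the ARE1 values of the groups overlap.

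Of the ester-forming enzymes, ARE2 was lower in both mutant groups than in WT-red and ARE1 was not called in any of the 3 comparisons. ARE2 encodes the main sterol acyltransferase of aerobic cells, and ARE1 is the isozyme used more at low oxygen. ARE2 had 255, 221 and 200.3 CPM in K504E-white, 268, 258 and 253 CPM in K504E-red, and 329.9, 344 and 327 CPM in WT-red, and fell by 0.56 (SE 0.0685) in K504E-white and fell by 0.36 (SE 0.0683) in K504E-red. Its call of -0.20 (SE 0.0685, adjusted p 0.0181 by edgeR) between the colours was lost without K504E-red replicate 1 or K504E-white replicate 2 or 3, with adjusted p-values from 0.0532 to 0.135. ARE1 gave 0.02 (SE 0.0655) in K504E-white and 0.07 (SE 0.0656) in K504E-red. HES1, an oxysterol-binding homologue, was the least abundant gene, with 5.46, 4.07 and 2.96 CPM in K504E-white, 1.28, 1.61 and 3.02 CPM in K504E-red, and 4.05, 4.59 and 2.66 CPM in WT-red. The groups overlapped in every comparison. HES1 was called lower in K504E-red, relative to WT-red (-0.93, SE 0.337, adjusted p 0.0321 by edgeR) and lost that call under 5 of 19 alternatives, with adjusted p-values from 0.0523 to 0.134. Its call of 1.07 (SE 0.334, adjusted p 0.0119) between the colours was lost without K504E-red replicate 1 (0.83, adjusted p 0.0546) or K504E-white replicate 1 (0.83, adjusted p 0.0740).

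Levels per gene length allow paralogues to be compared within a library. The HMG1 to HMG2 ratio of FPKM was 0.905 in K504E-white (range 0.746 to 1.14), 0.514 in K504E-red (0.490 to 0.539) and 0.938 in WT-red (0.850 to 1.03). The ratio in K504E-red did not overlap either other group, at an exact two-sided permutation p of 0.1 each, the smallest that 3 against 3 libraries can give, and the exact p between K504E-white and WT-red was 0.9. The ARE1 to ARE2 ratio was 0.590 in K504E-white (0.553 to 0.652), 0.532 in K504E-red (0.520 to 0.551) and 0.393 in WT-red (0.379 to 0.421), again at 0.1 for each pair of groups by the exact test. The UPC2 to ECM22 ratio was 0.606 in K504E-white, 0.511 in K504E-red and 0.772 in WT-red. It was lower in both mutant groups than in WT-red at 0.1, and the exact p between the colours was 0.3. ECM22 exceeded UPC2 per gene length in all 9 libraries, and ARE2 exceeded ARE1.

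The K504E-white libraries differed among themselves along most of the pathway. K504E-white replicate 1 was the highest of its group for 29 of the 32 genes and for 31.4% of all genes tested, and K504E-white replicate 3 was the lowest for 24 of the 32 and for 34.7% of all genes. The median coefficient of variation over the 32 genes was 9.45% in K504E-white, 4.63% in K504E-red and 4.18% in WT-red, and the median over all genes was 4.81% in K504E-white, 5.63% in K504E-red and 5.97% in WT-red. In K504E-red, replicate 2 was the highest for 15 of the 32 genes (30.0% of all genes) and replicate 3 the lowest for 15 (32.3%). In WT-red, replicate 2 was the highest for 17 (29.9% of all genes) and replicate 3 the lowest for 19 (26.8%). Without K504E-white replicate 3, the genes in opposite called directions in the mutant groups were 5, namely HMG1, ERG1, ERG5, NCP1 and ERG28. NCP1 was the 1 such gene without K504E-white replicate 1 or 2 or WT-red replicate 1.

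Genes around the pathway were described from lists of related functions. Beside their counts stand all genes tested, of which 23.3% rose and 23.5% fell in K504E-white, and 25.8% rose and 21.7% fell in K504E-red, relative to WT-red. Of 7 sterol uptake and export genes, 1 rose and 1 fell in K504E-white, and 4 rose and 1 fell in K504E-red, relative to WT-red. PRY1, a secreted sterol-binding protein gene, had 676, 711 and 727 CPM in K504E-white, 397, 352 and 362 CPM in K504E-red, and 243, 268 and 311 CPM in WT-red. The 3 groups did not overlap, and PRY1 rose by 1.36 (SE 0.0745, adjusted p 7.43e-11 by edgeR) in K504E-white and by 0.43 (SE 0.0737, adjusted p 0.000121) in K504E-red against WT-red. Of 13 genes for sterol binding and transfer proteins, 4 rose and 3 fell in K504E-white, shares near those of all genes, and 3 rose and 0 fell in K504E-red. Among 5 ester hydrolysis and acetylation genes, 3 were lower and 0 higher in K504E-white, and 3 lower and 1 higher in K504E-red, relative to WT-red. ATF2, which encodes an acetyltransferase that acts on sterols, had 50.4, 41.7 and 44.2 CPM in K504E-white, 22.9, 21.0 and 23.5 CPM in K504E-red, and 58.2, 54.1 and 53.5 CPM in WT-red. ATF2 fell by 1.30 (SE 0.0903) in K504E-red relative to WT-red and rose by 1.02 (SE 0.0902) in K504E-white against K504E-red.

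Relative to WT-red, 0 of 11 genes of branches that draw on the prenyl intermediates rose and 5 fell in K504E-white, where 23.3% and 23.5% of all genes did. In K504E-red, 1 of the 11 rose and 1 fell, against 25.8% and 21.7% of all genes. Of 9 genes for turnover of HMG-CoA reductase, 1 rose and 4 fell in K504E-white, and 0 rose and 2 fell in K504E-red. Of 3 neutral lipid synthesis genes, 1 fell in K504E-white and 1 rose in K504E-red.

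Of 8 genes known to respond to heme or oxygen, 7 rose and 0 fell in K504E-white relative to K504E-red, where 27.2% of all genes rose, and 6 rose and 0 fell relative to WT-red. In K504E-red, 1 rose and 3 fell relative to WT-red. The list was not divided by the direction of each gene's known response, so its counts do not measure heme or oxygen. HEM13, the oxygen-requiring coproporphyrinogen oxidase gene of heme synthesis, had 1358, 1248 and 1281 CPM in K504E-white, 380.4, 313 and 383 CPM in K504E-red, and 557, 491 and 553 CPM in WT-red. It gave 1.28 (SE 0.0725) in K504E-white and -0.57 (SE 0.0721) in K504E-red against WT-red, both with the groups apart. Of 7 regulators of heme and oxygen responses, 2 rose and 1 fell in K504E-white, and 1 rose and 4 fell in K504E-red, relative to WT-red, where 23.3% and 23.5% of all genes did in K504E-white and 25.8% and 21.7% in K504E-red. Between the colours, 4 of these 7 were higher and 1 lower in K504E-white, where 27.2% and 27.3% of all genes were. The 1 that rose in K504E-red was HAP1 (0.45), a heme-responsive activator, and those that fell were ROX1 (-0.47), MOT3 (-0.67), DAP1 (-0.33) and MGA2 (-0.34), all 5 named after their values were seen. The part of heme and oxygen in the sterol gene values was not tested.

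**Figure D5:**
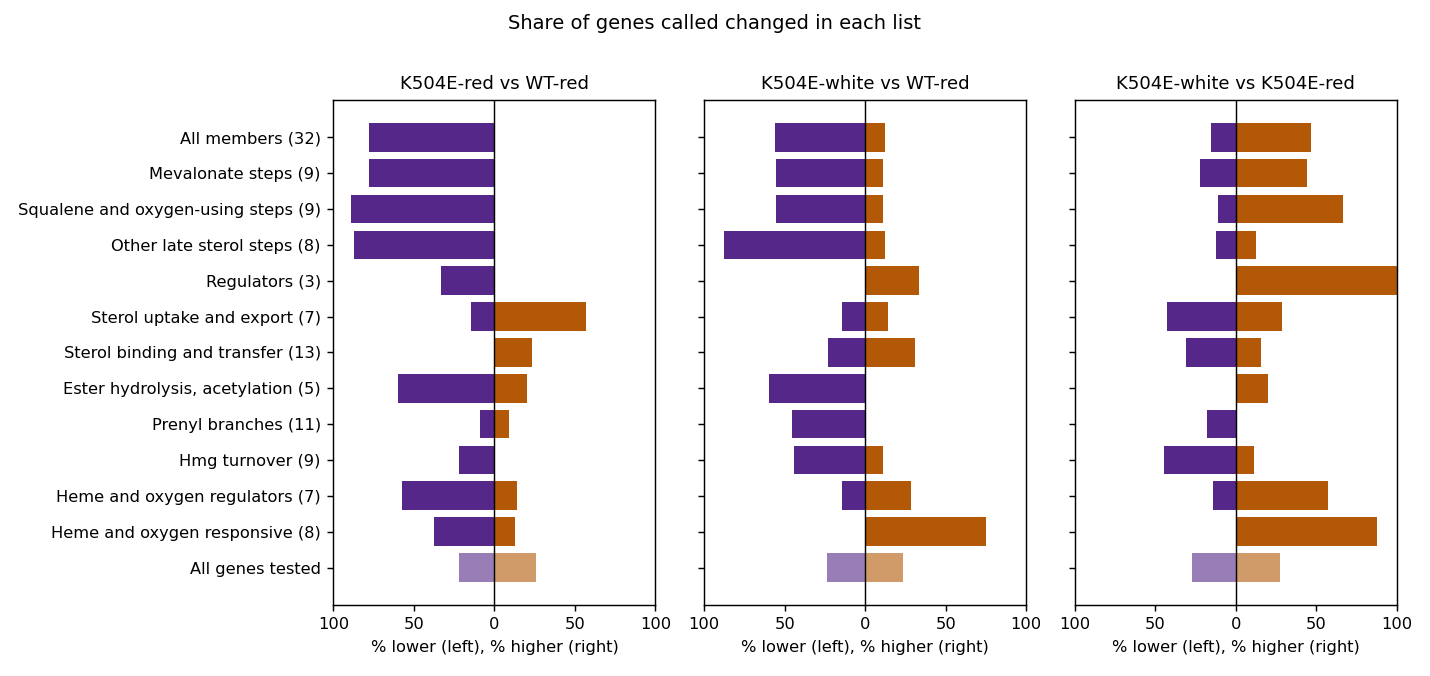
Percent of the genes of each list called lower (purple, to the left) and higher (orange, to the right) in the first-named group of each comparison, with the number of genes tested in brackets and all 5172 genes in the bottom row. The sterol steps reach far to the left in K504E-red against WT-red, and the heme and oxygen responsive genes reach to the right in both K504E-white comparisons.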

How the data were processed

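The authors deposited whole-number counts per gene for 9 poly(A) libraries, without normalization, and FPKM per library and per group. The deposited FPKM scale counts by gene length and by a total that was 0.986 to 1.03 times the count sum of the library. Gene positions refer to a W303 assembly (195 contigs in the deposited tables). The aligner, counter, versions and use of strand are not given in the sources used here. No member overlaps another gene of the table (0 overlaps found). Symbols came from the deposited descriptions, and 1 related gene from a RefSeq table of S288C. Of the related genes listed, PDR18, BET4 and COX5B were not used here. No sequence was read, because the genome at hand is S288C.

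Counts were filtered with filterByExpr (33 genes removed, 6 of 5205 without any count), scaled by TMM and tested with edgeR 4.0.16 in R 4.3.3 (quasi-likelihood, two-sided, all 9 libraries, group as the only term), with Benjamini-Hochberg adjustment over 5172 genes. Each SE was derived from the F statistic. The code was tested on simulated data. Paralogue ratios used exact permutation tests. The alternatives were other scalings, filters and tools (DESeq2 1.42.0, limma 3.58.1 with voom, and limma on log2 FPKM plus 1 or plus 0.1), fits restricted to the groups compared, a replicate block and omission of each library. Precision is that of 3 libraries per group. Depth per library was 27388755 to 34634199 counts. Related genes were named when called with at least a 2-fold change, at most 4 per list, besides CDC13 and ADE2. Outside that rule, 5 heme and oxygen regulators are named, chosen after their values were seen. The genes and lists were chosen with earlier results of these data known. Plots were drawn with matplotlib 3.10.9.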

Additional observations from a re-analysis of the deposited data

Results flagged for a closer look

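Of the 32 genes, 2 were called in opposite directions in the mutant colours relative to WT-red. The share of all genes called in opposite directions was not counted, so it is not known whether that number is unusual. NCP1, the electron donor of P450 enzymes, had a value higher by 0.76 on the log2 scale in K504E-white than in K504E-red (SE 0.0521). ERG28, the scaffold of the demethylation enzymes, had a value higher by 0.55 (SE 0.0609). Both genes were picked for those opposite directions, so the difference between the colours follows from the choice and is given as a description. NCP1 was in opposite called directions under all 19 alternatives, and ERG28 under 16 of them.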

How the results depend on the processing

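Of 1824 values (96 for the 32 genes under each of 19 alternatives), 1748 retained their direction and side of the threshold, 29 lost a call, 14 gained one and 33 changed sign, of which 0 were called either way. The number lower in K504E-red against WT-red was 24 to 26, with 0 higher throughout. The median of these genes, -0.457, was -0.485 with upper quartile scaling, -0.494 with genes of at least 1 count, -0.494 with at least 10 counts in every library and -0.485 in a fit of the groups compared alone, and -0.517 to -0.440 when single libraries were left out. In that comparison, the median over all genes tested was 0.0335 in the main fit and 0.00546 with upper quartile scaling. It was -0.00257 with genes of at least 1 count, -0.00336 with at least 10 counts in every library and 0.00553 with the groups compared alone. The cause of these shifts was not tested. In K504E-white against WT-red, leaving out single libraries gave 3 to 7 higher (7 without K504E-white replicate 3) and 17 to 19 lower, and between the colours 12 to 15 higher and 4 to 6 lower. The number of genes in opposite called directions was 1 to 5 in those fits and 3 with the replicate block, where ERG5 was added (0.22 in K504E-white against WT-red, adjusted p 0.0271 by edgeR). The replicate numbers did not pair the libraries (correlations of same-numbered libraries from -0.110 to 0.0274, best with the own number in 0 of 9). With the replicate block, 26 genes were lower in K504E-red against WT-red, 5 higher and 18 lower in K504E-white against WT-red, and 15 higher and 5 lower between the colours. HES1 rests on 39 to 188 counts per library, so its fold changes are the least precise of the 32. The sign changes were of small values. In K504E-red against WT-red, ECM22 was -0.00251 with upper quartile scaling, -0.0113 with genes of at least 1 count, -0.0110 with at least 10 counts in every library and -0.00229 in the fit of the groups compared alone. In K504E-white against WT-red, ARE1 was -0.00257, -0.0180 and -0.0178 with the first 3 of these. When single libraries were left out, K504E-red against WT-red gave -0.0591 to 0.0568 for ECM22, -0.0610 to 0.0114 for HMG2 and -0.00904 to 0.282 for CDC13. K504E-white against WT-red gave -0.0532 to 0.299 for HMG1, -0.150 to 0.149 for CYB5, -0.00710 to 0.241 for UPC2, -0.0849 to 0.300 for SUT1, -0.0882 to 0.0386 for ARE1 and -0.137 to 0.317 for HES1. K504E-white against K504E-red gave -0.0407 to 0.105 for ERG10, -0.0307 to 0.144 for MVD1, -0.0616 to 0.0887 for ERG25, -0.00885 to 0.0618 for ERG24, -0.119 to 0.0132 for ERG26, -0.0265 to 0.0773 for ERG6 and -0.125 to 0.00188 for ARE1.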
